A study of Mus musculus with 6 samples.

Results

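The genes described here are 10 targets of the glucocorticoid receptor in mouse lung, Fkbp5, Tsc22d3, Zbtb16, Pdk4, Klf9, Errfi1, Sgk1, Hif3a, Cebpd and Angptl4, taken by their symbol from the mRNA table. Values were found for 9 of the 10, among the 22564 genes of the table, and Cebpd was not analysed here. All 9 reached 0.5 FPKM (fragments per kilobase of transcript, scaled to the size of the library) in at least 1 library and so belonged to the 14760 genes tested. The PBLI group (primary blast lung injury) held male C57BL/6 mice of 8 to 10 weeks whose chest was exposed under anesthesia to a shock wave of 0.5 bar and whose lung was taken 6 h later. The Control group held mice of the same strain, sex and age that were anesthetized without a blast. Each library came from right upper lobes of 2 mice pooled, with 3 libraries per group, so a p-value measures the spread between pools. The question addressed was which of these targets differed between blast-exposed and unexposed lung.

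The glucocorticoid receptor is a transcription factor that waits in the cytoplasm in a complex with heat shock proteins. When corticosterone, the adrenal stress hormone of the mouse, binds to it, it enters the nucleus and raises or lowers the transcription of its targets. In lung these targets include genes that damp inflammation, genes that shift cells to the use of fat as fuel, and genes for sodium transport and surfactant, and the most responsive of them are widely used as readouts of the hormone.

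The response element to which the receptor binds as a pair was taken as the hexamers AGAACA and TGTTCT with any 3 bases between them. In this form it reads the same on both strands. The genome (GRCm38.p6, the build mm10 of the files) was searched for elements without a mismatch from 10 kb before to 10 kb behind each gene's locus in the table. Of the 9 members, 3 (33.3%) held at least 1 such element, Fkbp5, Angptl4 and Sgk1, against 616 of 22551 genes of the table (2.73%). The windows searched had a median length of 63.2 kb for the members and 45.1 kb for all genes. The other 6 members held 0 without a mismatch. Elements with mismatches were not searched for in these windows, so the 0 does not show that a response element was absent. The 4 elements are shown because they are all those found in the windows of the members. Capitals mark the hexamers, and each sequence is given on the strand of its gene.
Fkbp5, chr17:28442412-28442440, minus strand, intron: ttgtttgAGAACAgctTGTTCTaggcttt
Fkbp5, chr17:28420314-28420342, minus strand, intron: cacattcAGAACAgggTGTTCTgtgctct
Angptl4, chr17:33774884-33774912, minus strand, 3′ UTR: caacctcAGAACAtttTGTTCTctgttgt
Sgk1, chr10:21993694-21993722, plus strand, intron of its longer transcripts: tgcggaaAGAACAgaaTGTTCTcggagat

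The elements of Fkbp5 lay 75101 and 97199 bases behind the start of the gene, which runs on chromosome 17 from 28399094 to 28517527 on the minus strand (GENCODE). The promoter window of Fkbp5 used below, chr17:28486100-28486399, marks a start nearer to both elements. The element of Angptl4 lay 6932 bases behind the start, in the last part of a gene that runs on chromosome 17 from 33773750 to 33781830, also on the minus strand. Sgk1 (chromosome 10, 21882184 to 21999903, plus strand) has several starts, and its element also fell into a promoter window. In the RefSeq table of promoters (GRCm38.p6, 250 bases before to 50 bases after each start) 7 of the members matched, with 15 windows, and Zbtb16, Cebpd and Angptl4 did not. The complete element stood in 1 of the 15 windows and in 3 of all 32851 windows (0.00913%). That window of Sgk1, chr10:21993640-21993939 on the plus strand, is shown with the element in capitals, which begins at its base 62.
Sgk1: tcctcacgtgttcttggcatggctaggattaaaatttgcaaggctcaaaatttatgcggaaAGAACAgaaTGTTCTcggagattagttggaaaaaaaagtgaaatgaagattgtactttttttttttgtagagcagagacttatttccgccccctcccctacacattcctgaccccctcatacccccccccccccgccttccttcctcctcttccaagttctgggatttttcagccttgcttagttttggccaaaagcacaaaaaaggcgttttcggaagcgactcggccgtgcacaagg

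With up to 2 mismatches in the 12 bases of the hexamers, 2 of the 15 windows held an element, both of Sgk1, against 1.84% of all windows. A hexamer of the pair, alone or within an element, was in 4 of 15 windows, all of Sgk1 or Tsc22d3, against 19% of all. Several of the 15 windows are starts of the same gene, above all of Sgk1, so they do not stand for separate members. The E-box CACGTG, the same on both strands and bound by the clock proteins, was in 2 windows, those of Fkbp5 and Sgk1, against 7.15% of all. A match of letters is a description and does not show that the receptor was bound there.

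Relative sequencing depth, read from the commonest ratio between very low FPKM values, was 1.32, 1.24 and 1.61 in PBLI G3, G4 and G5, against 1, 1 and 1.16 in Control 1, 2 and 3, and the absolute depth is unknown here. In PBLI G3, G4 and G5 that ratio was held by 47 of 142, 38 of 135 and 22 of 147 genes compared. In Control 2 and 3 it was held by 33 of 134 and 27 of 145. How the authors scaled the libraries is not given, so depth and scaling cannot be told apart here. The table calls the libraries of the PBLI group G3, G4 and G5, and these names were matched to the group without a sample number. PBLI G5 stood apart from the other 2. The summed level of 8 neutrophil markers was 2261, 1942 and 369 FPKM in PBLI G3, G4 and G5, against 280.2, 168 and 255 FPKM in Control 1, 2 and 3. Of these markers, Ly6g was above 0 only in PBLI G3, at 1.37 FPKM. The level of the metallothionein Mt2, a target of the receptor that also responds to metals, was 24.4, 23.0 and 781 FPKM in PBLI G3, G4 and G5, against 16.3, 9.14 and 14.9 FPKM in Control 1, 2 and 3. Markers of alveolar type 2 cells summed to between 12359 and 13226 FPKM in PBLI and between 9408 and 10426 FPKM in Control, so markers of lung were high in all libraries. The results of the members are therefore given with and without PBLI G5. In bulk tissue, fewer cells of a type and less RNA per cell cannot be told apart.

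Of the 9 members, 1 rose at an adjusted p under 0.05 (limma, Benjamini and Hochberg over 14760 genes) and 0 fell, against 1.15% of all genes tested that rose and 0.928% that fell. The gene was Angptl4. At an unadjusted p under 0.05, 4 members were higher in PBLI (Fkbp5, Klf9, Pdk4 and Angptl4) against 9.15% of all genes, and 0 were lower, against 10% of all genes. Without Control 1 that p was 0.0844 for Fkbp5, 0.0941 for Klf9 and 0.0530 for Pdk4 (limma). Without PBLI G5 it was 0.0476 for Fkbp5, 0.0969 for Klf9 and 0.00789 for Pdk4, and 0.0433 for Sgk1, which was lower (limma). A ratio of mean FPKM of 2 or more with an unadjusted p up to 0.05 (limma) was reached by 3 members, Fkbp5, Pdk4 and Angptl4, and the inverse by 0, against 2.01% and 2.44% of all genes. With the fold taken on the scale of FPKM + 0.5 used for the test, 2 members reached it (Fkbp5 and Pdk4) and 0 the inverse, against 1.38% and 1.17% of all genes. The fold change was positive in 8 of 9 members, against 6950 of 14760 genes tested. Its median in the members was 0.53 on the log2 scale, where the median of all genes was -0.02. Without PBLI G5 these medians were 0.37 and -0.01. Hif3a, Sgk1 and Errfi1 were then negative, and Zbtb16 was at 0.01. In 2 members, Angptl4 and Pdk4, every PBLI library was above every Control library, against 13.3% of all genes.

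**Figure D1:**
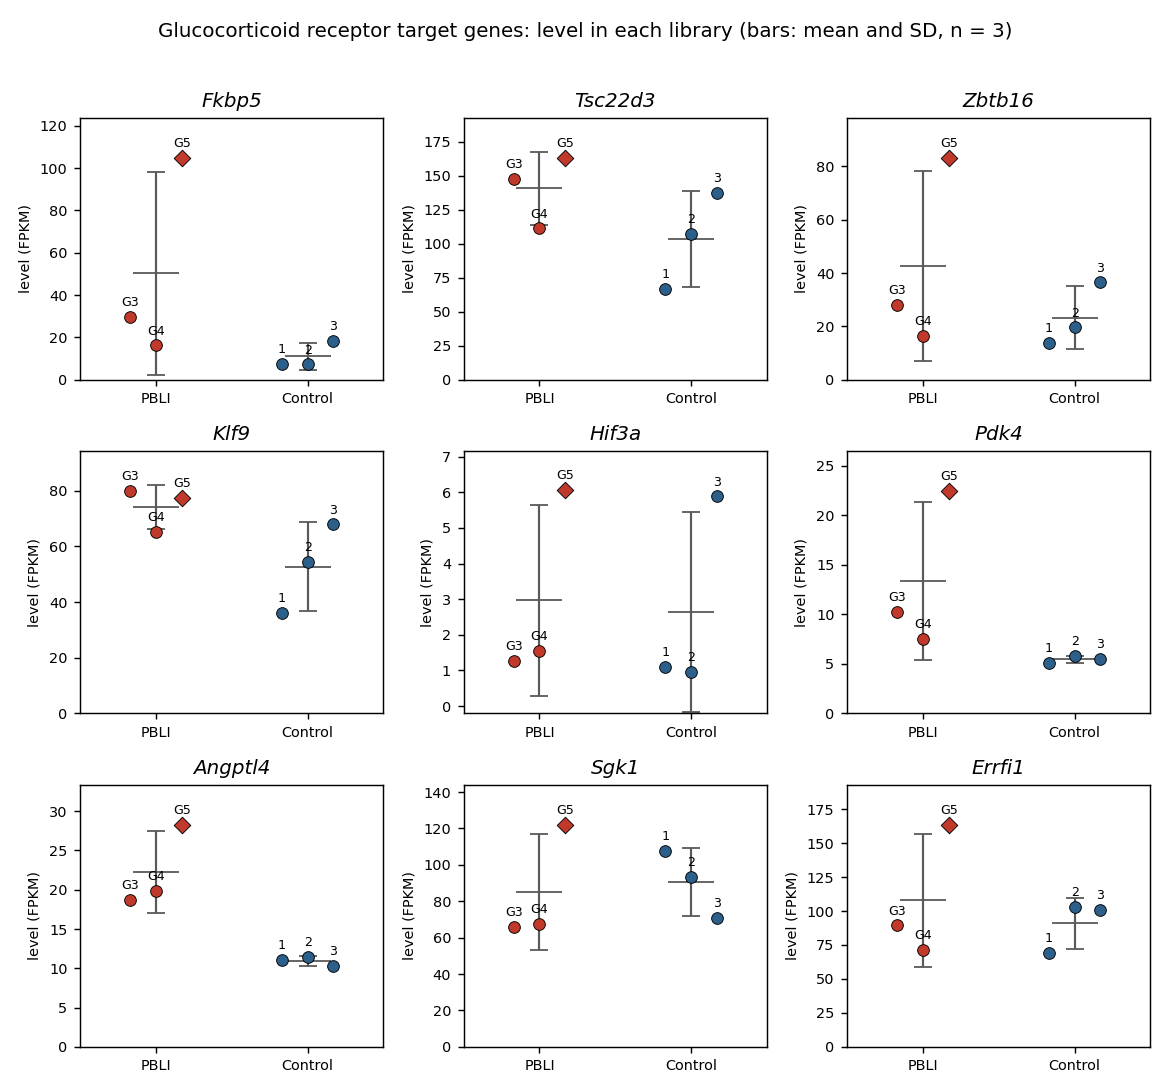
Level of each member in FPKM (vertical axes, each on its own linear scale) in the 3 PBLI libraries (red, G5 as a diamond) and the 3 Control libraries (blue), with the mean and SD of each group as grey bars. The groups lie apart only in Pdk4 and Angptl4, and PBLI G5 is the highest library in all members but Klf9.

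Angptl4 and Pdk4 are the members that act in the use of fuel. Angptl4 is secreted and inhibits lipoprotein lipase, so that less fat is taken up from the blood, and in lung it is also known from studies of vascular leak. The level of Angptl4 was 18.7, 19.9 and 28.3 FPKM in PBLI G3, G4 and G5, against 11.1, 11.4 and 10.3 FPKM in Control 1, 2 and 3. All PBLI libraries were above all Control libraries, and the Control values lay close together. The mean was 22.3 ± 5.20 FPKM in PBLI and 10.9 ± 0.581 FPKM in Control (SD, n = 3 pools each), a ratio of 2.04. The log2 fold change on the scale of FPKM + 0.5 was 0.97 ± 0.16 (SE), with an adjusted p of 0.0326 (limma).

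Without PBLI G5 the log2 fold change of Angptl4 was 0.79 and its adjusted p 0.0177 (limma), so the difference did not rest on that library. Without it Angptl4 was again the 1 member that rose and 0 fell, against 1.98% and 1.14% of all genes. The call was lost when any other library was left out, with an adjusted p of 0.136, 0.158 and 0.105 without Control 1, 2 and 3, and of 0.0928 and 0.0697 without PBLI G3 and G4 (limma). The fold change was between 0.79 and 1.08 on the log2 scale in all of these. By an exact permutation test on the FPKM values (two-sided) p was 0.1, the smallest that 3 against 3 libraries can give. Angptl4 is also made by adipocytes. The 7 adipocyte markers summed to 45.6, 15.0 and 30.5 FPKM in PBLI G3, G4 and G5, against 7.71, 11.5 and 18.6 FPKM in Control 1, 2 and 3, with Lep and Retn at 0 in at least 1 library. The sums of the groups overlapped only in that PBLI G4 lay below Control 3. Within each group the order differed from that of Angptl4. The sum was highest in PBLI G3 and in Control 3, where Angptl4 was lowest of its group, at 18.7 and 10.3 FPKM. All 6 adipocyte markers tested had a positive log2 fold change, with a median of 1.02, and 1.04 without PBLI G5, beside 0.97 and 0.79 for Angptl4. In 2 of them every PBLI library was above every Control library, against 13.3% of all genes. Of the 6, 0 passed the adjusted threshold, against 1.15% of all genes that rose (limma; before adjustment, 1 was higher at p under 0.05, against 9.15%). The part of adipocytes in the level of Angptl4 was not tested.

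Pdk4 encodes a mitochondrial kinase that switches off pyruvate dehydrogenase and so spares glucose. Its level was 10.2, 7.47 and 22.4 FPKM in PBLI G3, G4 and G5, against 5.08, 5.75 and 5.49 FPKM in Control 1, 2 and 3. The groups did not overlap, but the PBLI libraries spread 3.00-fold among themselves and the Control libraries 1.13-fold. Pdk4 had a log2 fold change of 1.07 ± 0.35 (SE), with an unadjusted p of 0.0166 and an adjusted p of 0.167 (limma). Without PBLI G5 it was 0.64, with an adjusted p of 0.107 (limma), and without PBLI G4 it was 1.40. It passed the threshold under 0 of 14 alternatives. Pdk4 lies on chromosome 6 from 5483351 to 5496309 on the minus strand.

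Fkbp5 encodes the co-chaperone FKBP51, which joins the receptor complex, lowers its affinity for the hormone and so closes a feedback loop. The level of Fkbp5 was 29.5, 16.2 and 105 FPKM in PBLI G3, G4 and G5, against 7.53, 7.25 and 18.5 FPKM in Control 1, 2 and 3. PBLI G5 was far above the rest, and PBLI G4 was below Control 3, so the groups overlapped. The log2 fold change of Fkbp5 was 1.83 ± 0.65 (SE), the largest among the members, with a 95% confidence interval of 0.31 to 3.35, an unadjusted p of 0.0246 and an adjusted p of 0.195 (limma). Without PBLI G5 it was 1.09, with an adjusted p of 0.249 (limma), and over all left-out libraries it lay between 1.09 and 2.41, the highest without PBLI G4. The mean of PBLI G3 and G4 was 2.06 times the mean of the Control libraries, and PBLI G5 was 4.59 times the mean of G3 and G4.

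Tsc22d3 encodes GILZ, a leucine zipper protein that binds NF-kB and AP-1 and carries part of the anti-inflammatory action of glucocorticoids. It lies on chromosome X from 140539528 to 140600659 on the minus strand, and of the 9 members it had the highest mean FPKM in both groups. The level of Tsc22d3 was 148, 111 and 163 FPKM in PBLI G3, G4 and G5, against 66.8, 107 and 137 FPKM in Control 1, 2 and 3. Control 1 was low, and PBLI G4 was close to Control 2. Tsc22d3 had a log2 fold change of 0.48 ± 0.26 (SE), with an adjusted p of 0.353 (limma), and 0.37 without PBLI G5. It was 0.20 without Control 1 and 0.71 without Control 3.

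Klf9, Zbtb16 and Hif3a encode transcription factors. Klf9 is a zinc finger factor that responds to glucocorticoid and thyroid hormone and represses part of the later response. Its level was 79.8, 65.3 and 77.3 FPKM in PBLI G3, G4 and G5, against 35.9, 54.3 and 67.9 FPKM in Control 1, 2 and 3. Only PBLI G4 lay below the highest Control library, and Klf9 was the one member whose highest library was PBLI G3. The log2 fold change of Klf9 was 0.53 ± 0.22 (SE), with an unadjusted p of 0.0415 and an adjusted p of 0.240 (limma). The log2 fold change was 0.50 without PBLI G5, but 0.28 without Control 1, with an unadjusted p of 0.0941, and 0.73 without Control 3, with an unadjusted p of 0.00814 (limma).

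Zbtb16 encodes PLZF, a repressor that is among the most inducible targets of the receptor in many cell types. Its level was 28.1, 16.5 and 83.3 FPKM in PBLI G3, G4 and G5, against 13.7, 19.6 and 36.5 FPKM in Control 1, 2 and 3. Apart from PBLI G5, the PBLI values lay within the range of the Control values. Zbtb16 had a log2 fold change of 0.65 ± 0.58 (SE), with an adjusted p of 0.573 (limma), and 0.01 without PBLI G5. Over all left-out libraries it lay between 0.01 and 1.16, the highest without PBLI G4.

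Hif3a encodes a hypoxia-inducible factor subunit of which some isoforms restrain the response to low oxygen. Its level was 1.27, 1.55 and 6.06 FPKM in PBLI G3, G4 and G5, against 1.09, 0.946 and 5.88 FPKM in Control 1, 2 and 3. A single library of each group was high, and the log2 fold change was 0.23 ± 0.69 (SE), with an adjusted p of 0.879 (limma), and -0.36 without PBLI G5. It was the member with the lowest level, and its spread within each group exceeded the difference between the groups.

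Sgk1 and Errfi1 act in signalling. Sgk1 is a kinase that raises sodium uptake through the epithelial sodium channel and responds to both corticosteroid receptors. Its level was 65.8, 67.3 and 122 FPKM in PBLI G3, G4 and G5, against 108, 93.2 and 71.0 FPKM in Control 1, 2 and 3. PBLI G5 was the highest library and the other PBLI libraries were the lowest. The log2 fold change of Sgk1 was -0.13 ± 0.26 (SE), with an adjusted p of 0.811 (limma). Without PBLI G5 it was -0.42, with an unadjusted p of 0.0433 and an adjusted p of 0.239 (limma).

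Errfi1, also called MIG6, encodes an inhibitor of the epidermal growth factor receptor. Its level was 89.3, 71.1 and 163 FPKM in PBLI G3, G4 and G5, against 69.4, 103 and 101 FPKM in Control 1, 2 and 3. Apart from PBLI G5, the PBLI values lay within the range of the Control values, as for Zbtb16. Errfi1 had a log2 fold change of 0.17 ± 0.30 (SE), with an adjusted p of 0.784 (limma), and -0.17 without PBLI G5. Errfi1 lies on chromosome 4 from 150853919 to 150868892 on the plus strand.

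**Figure D2:**
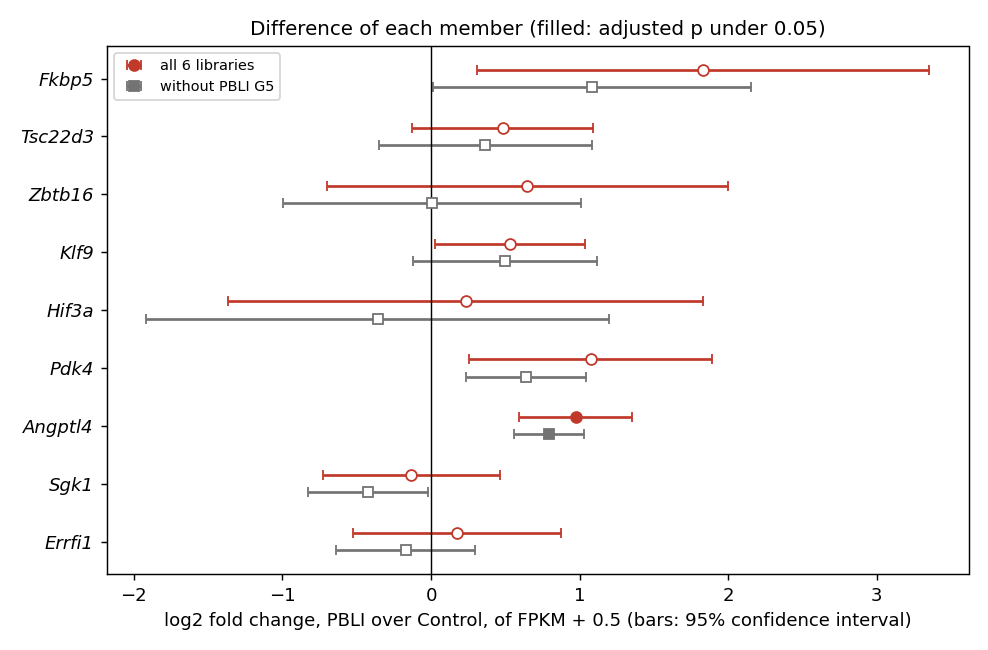
Log2 fold change of each member, PBLI over Control (horizontal axis, of FPKM + 0.5), with its 95% confidence interval from limma, for all 6 libraries (red circles) and without PBLI G5 (grey squares). Angptl4 alone is filled (adjusted p under 0.05), at 0.97 with all libraries and 0.79 without PBLI G5, while Hif3a and Errfi1 change sign.

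PBLI G5 was the highest of the 6 libraries in 8 of 9 members, against 24.5% of all genes tested. It was at least 1.5 times the mean of PBLI G3 and G4 in 6 of 9 members, against 10.4% of all genes. The ratio was 4.59 for Fkbp5, 4.29 for Hif3a, 3.73 for Zbtb16, 2.54 for Pdk4, 2.04 for Errfi1 and 1.83 for Sgk1. It was 1.46 for Angptl4, 1.26 for Tsc22d3 and 1.07 for Klf9. Among the Control libraries, Control 1 held the lowest of all 6 values in 5 of 9 members, against 18.6% of all genes. Control 3 was the highest Control library in 5 of 9 members, against 32.9% of all genes. Fkbp5, Zbtb16 and Hif3a spread 2.55-fold, 2.66-fold and 6.22-fold over the Control libraries, while Pdk4 and Angptl4 spread 1.13-fold and 1.11-fold.

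Levels in FPKM are scaled for length, and those of different genes are set side by side here as a description only. In Control the mean level of Tsc22d3 was 104 ± 35.3 FPKM, that of Errfi1 91.1 ± 18.8 and that of Sgk1 90.7 ± 18.5 FPKM (SD, n = 3), which lay within each other's spread. Klf9 averaged 52.7 ± 16.0 FPKM and Zbtb16 23.3 ± 11.8 FPKM. Fkbp5 averaged 11.1 ± 6.39 FPKM and Angptl4 10.9 ± 0.581 FPKM, and Pdk4 at 5.44 ± 0.339 and Hif3a at 2.64 ± 2.81 FPKM had the lowest means. Differences between genes were not tested.

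Among other genes, those whose log2 level was most like that of Fkbp5 over the 6 libraries were Cd9, Rhpn2 and Prkci, with a Pearson r of 0.998, 0.997 and 0.996. The range of Cd9 was far smaller than that of Fkbp5, with 267, 245 and 360 FPKM in PBLI G3, G4 and G5, against 209, 205 and 250.1 FPKM in Control 1, 2 and 3. The genes most like Tsc22d3 were Mrpl38, Polr1d and Igsf11, with r of 0.997, 0.996 and 0.991. Between members r was highest for Tsc22d3 with Klf9, at 0.97, and lowest for Klf9 with Sgk1, at -0.40. These are descriptions over 6 points that share their libraries, chosen among all genes tested.

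The list of 25 other targets of the receptor contained 24 genes that were tested, of which 1 rose (Il1r2) and 0 fell (limma), against 1.15% and 0.928% of all genes. Before adjustment 7 were higher and 1 was lower at p under 0.05, against 9.15% and 10% of all genes. Their median log2 fold change was 0.24, against -0.02 for all genes. In 8 of the 24 every PBLI library was above every Control library, against 13.3% of all genes. Il1r2 encodes a decoy receptor that traps interleukin-1, and neutrophils also make it. Its level was 10.1, 6.89 and 3.63 FPKM in PBLI G3, G4 and G5, against 0.180, 0.725 and 0.470 FPKM in Control 1, 2 and 3, a log2 fold change of 2.88 with an adjusted p of 0.0166 (limma). Within PBLI it followed the order of the neutrophil marker sum, 2261, 1942 and 369 FPKM, whereas Fkbp5 was highest in PBLI G5. In PBLI G5, Il1r2 had 3.63 FPKM, against at most 0.725 FPKM in Control. The marker sum there was 369 FPKM, against at most 280.2 FPKM in Control. The part of neutrophils in the level of Il1r2 was not tested.

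Without PBLI G5, 3 of the 24 rose, Il1r2, Anxa1 and Tgm2, against 1.98% of all genes. Without PBLI G3, without PBLI G4, without Control 1 or without Control 2 the count was 0, and the adjusted p of Il1r2 lay between 0.0595 and 0.0935 when any library but PBLI G5 was left out (limma). Anxa1 encodes annexin A1, an anti-inflammatory protein released in response to glucocorticoids, and it was looked at after its values were seen. Its level was 179, 172 and 411 FPKM in PBLI G3, G4 and G5, against 114, 119 and 135 FPKM in Control 1, 2 and 3. The groups did not overlap, with an adjusted p of 0.174 for all libraries and 0.0416 without PBLI G5 (limma). Anxa1 passed the threshold under 1 of 14 alternatives, that one, with adjusted p-values up to 0.389 (limma). PBLI G5 was the highest library in 14 of the 24 genes, against 24.5% of all genes.

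**Figure D3:**
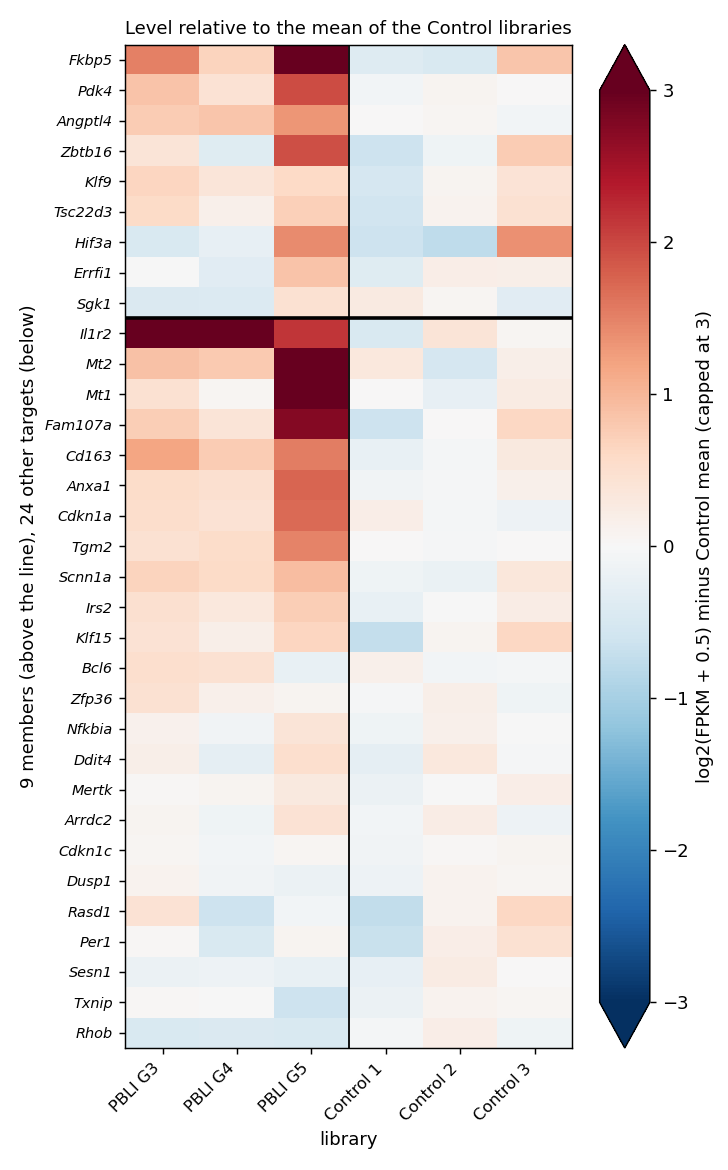
Level of the 9 members (above the line) and of 24 other targets (below it) in each library, as log2(FPKM + 0.5) minus the mean of the 3 Control libraries (red higher, blue lower, colour capped at 3), each block sorted by log2 fold change. The column of PBLI G5 is the reddest for Fkbp5, Mt1 and Mt2, while Il1r2 is highest in PBLI G3 and G4.

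Of the genes for the receptors and for the handling of the hormone, 0 of 7 tested passed the adjusted threshold in either direction (limma), while before adjustment 2 were higher and 1 was lower at p under 0.05. The shares of all genes were 1.15% higher and 0.928% lower after adjustment, and 9.15% and 10% before it. The receptor itself, Nr3c1, was named after its values were seen. Its level was 63.3, 63.5 and 44.7 FPKM in PBLI G3, G4 and G5, against 72.9, 71.5 and 67.2 FPKM in Control 1, 2 and 3. All PBLI values were below all Control values, as in 14.4% of all genes. PBLI G5 was the lowest library for the receptor while it was the highest for most members. Nr3c1 had a log2 fold change of -0.32, with an adjusted p of 0.275 (limma), and -0.15 without PBLI G5.

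H6pd makes the NADPH with which 11β-hydroxysteroid dehydrogenase 1 regenerates active hormone inside cells. Its level was 56.8, 62.2 and 82.7 FPKM in PBLI G3, G4 and G5, against 39.0, 43.5 and 39.4 FPKM in Control 1, 2 and 3. The groups did not overlap, and the adjusted p was 0.0586 with all libraries and 0.0308 without PBLI G5 (limma), at log2 fold changes of 0.70 and 0.55. H6pd passed the threshold under 2 of 14 alternatives, with adjusted p-values up to 0.198 (limma). The dehydrogenase itself, Hsd11b1, had 155, 160.0 and 136 FPKM in PBLI G3, G4 and G5, against 106, 130.3 and 155 FPKM in Control 1, 2 and 3, with an adjusted p of 0.435 (limma), and it too was chosen after its values were seen. Abcb1a, a pump that exports corticosteroids, had a log2 fold change of -0.43 with an adjusted p of 0.134 (limma).

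Of 16 chaperones and cofactors of the receptor, 4 rose, Hspa8, Hsp90aa1, Stip1 and Hsp90ab1, and 0 fell (limma; before adjustment, 8 higher and 0 lower at p under 0.05). Of all genes tested, 1.15% rose and 0.928% fell, and before adjustment 9.15% were higher and 10% lower. All 4 are chaperones that assemble the receptor complex, and they also serve many other proteins. Hspa8, the constitutive HSP70, had 604, 512 and 645 FPKM in PBLI G3, G4 and G5, against 257, 211 and 280.4 FPKM in Control 1, 2 and 3. Hsp90aa1, an HSP90 that holds the receptor ready for the hormone, had 286, 234 and 309 FPKM in PBLI G3, G4 and G5, against 131, 111 and 142 FPKM in Control 1, 2 and 3. The groups lay far apart, and PBLI G5 did not stand out from the other PBLI libraries as it did for Fkbp5. The log2 fold changes were 1.24 for Hspa8, 1.10 for Hsp90aa1, 0.95 for Stip1 and 0.63 for Hsp90ab1, with adjusted p-values of 0.0109, 0.0156, 0.0175 and 0.0277 (limma). All 4 passed without PBLI G5. The count was 0 without Control 1, Control 2 or PBLI G3, and 2 without Control 3.

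Of 15 inflammatory genes that glucocorticoids lower, 1 rose, Ptgs2, which encodes the inducible cyclooxygenase, and 0 fell (limma; before adjustment, 5 higher and 2 lower at p under 0.05). Its level was 16.7, 16.0 and 26.8 FPKM in PBLI G3, G4 and G5, against 5.74, 5.84 and 6.25 FPKM in Control 1, 2 and 3. The median log2 fold change of the list was -0.01. Of 17 targets of the PPAR receptors and genes of fatty acid oxidation, 0 rose (limma; before adjustment, 4 were higher at p under 0.05). For both lists, the shares of all genes were 1.15% that rose and 0.928% that fell. Before adjustment, 9.15% of all genes were higher and 10% lower.

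Of the closest relatives of the members, 0 of 21 tested rose and 1 fell (limma; before adjustment, 5 higher and 2 lower at p under 0.05), Angptl2, with 18.6, 17.7 and 16.9 FPKM in PBLI G3, G4 and G5, against 28.7, 26.7 and 27.8 FPKM in Control 1, 2 and 3. This secreted relative of Angptl4 had a log2 fold change of -0.63, with an adjusted p of 0.0203 (limma). Of 14 clock genes tested 1 rose, Cry1, a repressor of the clock that also binds the glucocorticoid receptor, with 9.88, 10.04 and 12.4 FPKM in PBLI G3, G4 and G5, against 3.45, 4.27 and 5.08 FPKM in Control 1, 2 and 3. Its log2 fold change was 1.25, with an adjusted p of 0.0196 (limma). Angptl2 lost its call without each library but PBLI G5, Ptgs2 lost it without each but PBLI G5 and PBLI G4, and Cry1 lost it without Control 1, Control 2, PBLI G3 or PBLI G4. Beside the relatives and the clock genes, 1.15% of all genes rose and 0.928% fell. Before adjustment, 9.15% of all genes were higher and 10% lower.

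**Figure D4:**
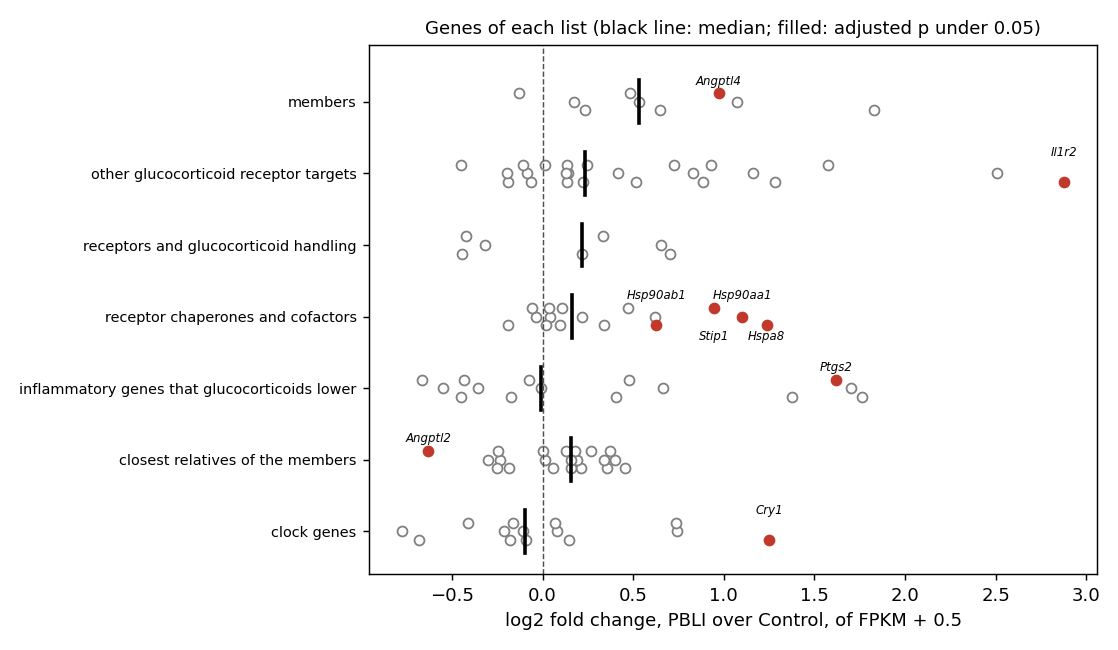
Log2 fold change, PBLI over Control, of FPKM + 0.5 (horizontal axis) for each tested gene of the members and of 6 related lists (rows), with the median of each list as a black line and genes at an adjusted p under 0.05 filled and named. The median of the members is 0.53 and that of the other targets 0.24, and the 4 filled chaperones lie between 0.63 and 1.24.

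In other readouts of the same genes little was found. Of 3 lncRNA transcripts listed as antisense to an intron of a member, those of Errfi1 and Fkbp5 were listed at 0 in all libraries. That of Hif3a had 0, 0.241 and 0.0935 FPKM in PBLI G3, G4 and G5, against 0, 0.445 and 0.385 FPKM in Control 1, 2 and 3, and it stayed under the minimum of 0.5 FPKM. Of 3696 circRNAs listed, 0 lay in the locus of a member.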

How the data were processed

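Lung RNA depleted of ribosomal RNA was sequenced in 6 libraries, 3 PBLI and 3 Control. The authors aligned reads to mm10 and quantified genes with cuffdiff, and the deposited mRNA and lncRNA values are FPKM as the authors made them. Their methods give neither the scaling of libraries in cuffdiff nor the tool for lncRNAs. The deposited circRNA values are counts of junction reads. The 18 other columns of values per library (scaled mRNA counts among them) and the authors' own comparisons were not used, so no test for raw counts was run.

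FPKM was tested as log2(FPKM + 0.5) with limma (3.58.1, mean-variance trend, R 4.3.3) over genes whose highest library reached 0.5 FPKM, PBLI over Control, with p adjusted by Benjamini and Hochberg at 0.05. The fold change of low genes is understated by the added 0.5. The FPKM of single genes was also compared by an exact permutation test. Motifs and figures used Python (3.11.15) and matplotlib (3.10.9). Promoter sequences are from RefSeq and gene positions from GENCODE, on GRCm38.

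The members and lists were chosen with earlier results of these data known. Genes named are all members, the called genes of each other list or else its 2 with the smallest p, and the 3 genes most like Fkbp5 and Tsc22d3, except 1 gene whose result is not reported here. Mt1, Mt2, Anxa1, Tgm2, Nr3c1, Hsd11b1 and Il1b were chosen after their values were seen, and so were single genes of the marker lists. Alternatives were other pseudocounts, filters and scalings, no trend, array weights and leaving out each library.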

Additional observations from a re-analysis of the deposited data

How the results depend on the processing

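The count of members that rose was 1, and it was 0 without a filter on low values and without the trend. Leaving out each library gave 0 to 1 members that rose, 0 to 3 members past a fold of 2 and an unadjusted p of 0.05, 4 to 292 genes that rose and 0 to 168 that fell, 0 to 3 other targets and 0 to 4 chaperones and cofactors that rose. Over all genes, where 170 rose and 137 fell, the counts were 106 and 68 without the filter, 70 and 59 without the trend and 644 and 529 with array weights. Of the members, 2 were past a fold of 2 on the scale of FPKM + 0.5, against 3 by the ratio of mean FPKM, a setting chosen after seeing the data. Array weights also gave 1 member past a fold of 2, and 3 other targets that rose and 1 that fell.

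The sign turned for Hif3a, to -0.15 with array weights and to -0.08, -0.15 and -0.36 without Control 1, Control 2 and PBLI G5, with a range over left-out libraries of -0.36 to 0.93. It turned for Errfi1, to -0.12 with array weights, to -0.01 without Control 1 and to -0.17 without PBLI G5 (range -0.17 to 0.43). It turned for Sgk1, to 0.0020 without Control 1 and to 0.021 and 0.0042 without PBLI G3 and PBLI G4 (range -0.42 to 0.021). The causes were not tested. Fkbp5, Tsc22d3, Zbtb16, Klf9, Pdk4 and Angptl4 kept a positive fold change under all 14 alternatives, and Angptl4 passed the threshold under 7, with adjusted p-values (limma) from 0.00682 to 0.158. No scaling moved the median of all genes by over 0.1 on the log2 scale.

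No paired analysis was possible because the PBLI columns carry no sample number. The paper also describes no pairing of PBLI and Control pools, and its mice were divided at random into the groups. The planned test on raw read counts, and the alternatives for lncRNAs, were not run, since the count columns were not used and 0 lncRNAs of the members passed the filter. With 3 pools per group, and fewer when a library is left out, only differences that are large beside the spread of the pools can pass. Hif3a had the lowest level of the members, 0.946 FPKM in Control 2.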
